A study of Homo sapiens with 9 samples.

Results

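The genes described here are 55 that act at DNA replication origins and forks, chosen by name from the 58735 genes counted in MIA PaCa-2, an established human pancreatic cancer cell line labelled as wild type. A single line was used, so the values are those of these cells alone. Cells were harvested after 24-h in 1 µM SCH772984, which inhibits ERK1/2, in 1 µM compound 1, which inhibits TBK1 and IKKε, or in 0.1% dimethyl sulfoxide (DMSO) as the vehicle, with 3 libraries per condition. The members fall into 8 steps of replication with 2 to 13 genes each. They were listed by their function in replication, with earlier results of these data known, and 54 of the 55 passed the filter on low counts in each of the 3 comparisons.

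A replication origin is licensed when the origin recognition complex, ORC, together with CDC6 and CDT1 loads the MCM helicase onto DNA as an inactive ring. Kinases then fire the origin by recruiting CDC45 and the GINS complex, which turn the ring into a moving helicase. Polymerase alpha with its primase starts each strand, and polymerases epsilon and delta extend it with the help of the PCNA clamp and its loader, while other factors coat single strands, join the lagging strand, steady the fork and repack the new DNA into nucleosomes. Many of these genes are known to be transcribed from late G1 into S phase under E2F factors, and the pathway that runs through RAS and ERK is known to drive cells toward that point.

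Promoter sequence was searched because E2F factors are known to act on many of these genes. RefSeq promoters on GRCh38.p14, 300 bases from 250 before to 50 after a start, were given for 46 of the 55 members. The search used 4 spellings of the E2F site (TTTGGCGC, TTTCGCGC, TTTCCCGC and TTTGCCGC), the CHR element of late cell cycle genes (TTTGAA) and the CCAAT box, on both strands, with overlapping matches counted separately. To show the site within different steps, 1 stretch of 30 bases is given for a gene of each of 5 steps, 5′ to 3′ on the gene's strand, with the match or its reverse complement in capitals.
CDT1 (chr16:88803743-88803772, plus strand): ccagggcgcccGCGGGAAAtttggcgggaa
MCM7 (chr7:100101566-100101595, minus strand): cagctcggaccGCGGGAAAcccggcgcctg
POLA1 (chrX:24693770-24693799, plus strand): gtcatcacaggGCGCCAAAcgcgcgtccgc
PCNA (chr20:5126663-5126692, minus strand): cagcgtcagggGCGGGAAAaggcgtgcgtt
LIG1 (chr19:48170440-48170469, minus strand): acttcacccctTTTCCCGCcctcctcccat

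The next 6 promoters are the 250 bases before the start of 6 genes among those with a promoter listed, the 3 with the largest fall with SCH772984 (MCM10, MCM7 and CDC45) and the 3 with the smallest change (ORC4, POLD2 and ORC5). RPA3, which changed less than POLD2 and ORC5, had no promoter listed. Capitals mark each match to any of the searched motifs or its reverse complement.
MCM10 (chr10:13161308-13161557, plus strand): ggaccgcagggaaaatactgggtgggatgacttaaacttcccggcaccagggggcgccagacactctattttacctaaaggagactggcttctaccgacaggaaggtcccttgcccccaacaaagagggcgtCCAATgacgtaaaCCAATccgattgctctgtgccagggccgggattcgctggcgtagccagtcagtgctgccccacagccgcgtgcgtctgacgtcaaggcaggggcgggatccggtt
MCM7 (chr7:100101398-100101647, minus strand): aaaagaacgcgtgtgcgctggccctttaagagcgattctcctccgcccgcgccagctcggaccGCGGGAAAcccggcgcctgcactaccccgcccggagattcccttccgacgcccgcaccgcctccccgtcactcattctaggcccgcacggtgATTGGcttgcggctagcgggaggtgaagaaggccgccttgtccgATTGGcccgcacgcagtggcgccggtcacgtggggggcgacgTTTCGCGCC
CDC45 (chr22:19479670-19479919, plus strand): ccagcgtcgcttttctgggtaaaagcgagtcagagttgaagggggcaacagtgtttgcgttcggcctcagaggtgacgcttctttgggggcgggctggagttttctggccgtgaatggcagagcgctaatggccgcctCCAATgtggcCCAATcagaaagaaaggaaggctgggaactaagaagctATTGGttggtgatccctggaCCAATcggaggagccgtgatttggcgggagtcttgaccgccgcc
ORC4 (chr2:148021552-148021801, minus strand): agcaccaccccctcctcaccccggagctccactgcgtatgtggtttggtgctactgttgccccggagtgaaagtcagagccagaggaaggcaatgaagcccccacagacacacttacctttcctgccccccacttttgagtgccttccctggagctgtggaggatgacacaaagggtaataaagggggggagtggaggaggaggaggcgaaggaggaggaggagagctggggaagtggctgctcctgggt
POLD2 (chr7:44123549-44123798, minus strand): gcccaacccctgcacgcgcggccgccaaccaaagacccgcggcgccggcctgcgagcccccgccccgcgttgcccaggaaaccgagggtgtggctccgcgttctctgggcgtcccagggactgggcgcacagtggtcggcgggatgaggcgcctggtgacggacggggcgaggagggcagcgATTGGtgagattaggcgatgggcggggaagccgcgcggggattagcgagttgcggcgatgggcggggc
ORC5 (chr7:104208014-104208263, minus strand): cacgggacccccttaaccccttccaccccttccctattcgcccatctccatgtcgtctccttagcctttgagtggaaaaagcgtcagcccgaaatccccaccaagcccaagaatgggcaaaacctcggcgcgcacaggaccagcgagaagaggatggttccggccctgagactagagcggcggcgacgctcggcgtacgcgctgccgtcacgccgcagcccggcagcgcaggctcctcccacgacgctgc
In these stretches MCM7 held 2 matches to the E2F site, at 187 and 9 bases before the start, and 3 CCAAT boxes, the last of which runs past the start. MCM10 held 2 CCAAT boxes and CDC45 held 4. ORC4 and ORC5 held none of the motifs, and POLD2 held 1 CCAAT box before the start. Without a match, these letters are simply not in the window.

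An E2F match stood in the promoter of 22 of the 46 members, or 47.8%, against 6.67% of the 9809 genes tested with SCH772984 that had a promoter and 3.99% of all 27303 genes with one. The count moved with the search, to 13 members (28.3%, against 2.40% of the tested genes) with the spellings TTTGGCGC and TTTCGCGC alone and to 10 (21.7%, against 3.85%) on the gene's strand alone. CCAAT boxes were found for 27 members (58.7%), against 42.9% and 39.7% of the same gene groups. Only DBF4 among the 46 had the CHR element (2.17%), against 13.1% and 18.2%. Members with and without an E2F match had overlapping ranges of change with SCH772984, with a median log2 fold change of -1.70 over 22 tested genes (range -2.43 to -0.78) and -1.60 over 23 (range -2.68 to -0.08). For the CCAAT box the medians were -1.68 over 26 genes with it (range -2.68 to -0.43) and -1.47 over 19 without (range -2.10 to -0.08), and these ranges overlapped as well. These matches are letters in a window and no measurement of binding, and genes with 1 listed start and with several were both counted by any match.

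Totals per library were 9464432 to 13887859 counts, with the 3 highest in SCH772984. Leaving out compound 1 replicate 1 moved the number of genes called with compound 1 more than leaving out any other library, and counts without it stand beside that comparison. As a check of the ERK inhibitor, 11 of 12 genes known as outputs of ERK signaling were tested with edgeR. All 11 were lower with SCH772984 at an adjusted p under 0.05 (median log2 fold change -5.24), where 35.5% of all tested genes were lower. With compound 1 none passed the adjusted threshold, where 0.374% of all tested genes were lower and 0.490% higher. At an unadjusted p under 0.05, 3 were lower and none higher, where 7.69% of all tested genes were lower and 7.35% higher. The line's keratins KRT8 and KRT18 and vimentin (VIM) were well counted but all 3 were lower with SCH772984, by log2 fold changes of -1.69, -2.40 and -0.23. EPCAM and CDKN2A had no count in any library, and CDH1 was at most at 0.415 CPM. Of the markers of other cells, the 5 acinar and islet genes had no count, and the leukocyte genes summed to at most 1.46 CPM (counts relative to the TMM-scaled library total). Summed over 5 fibroblast markers, mostly COL1A2, the level was 464 to 514 CPM with DMSO, 473 to 538 with compound 1 and 1031 to 1170.5 with SCH772984, with DCN at 0 in all DMSO and compound 1 libraries. By gene, the 4 tested fibroblast markers were all higher with SCH772984 than with DMSO, with log2 fold changes of 1.10 for COL1A2, 2.67 for COL3A1, 3.36 for COL1A1 and 6.25 for PDGFRB, and neither of the pair tested with compound 1 was called. The 4 endothelial markers, of which KDR was at 0 throughout, summed to 2.87 to 4.48 CPM with DMSO, 6.23 to 6.77 with compound 1 and 0 to 0.535 with SCH772984. The part of these markers in the results was not tested.

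With SCH772984, 53 of the 54 tested replication genes were lower than with DMSO and none was higher, at a Benjamini-Hochberg adjusted p under 0.05 (edgeR, quasi-likelihood). The 0 higher members stood at 0 at an unadjusted p under 0.05 and with DESeq2 as well. Over all 13834 genes tested, 35.5% were lower and 37.2% were higher. The median log2 fold change of the members was -1.64 and that of all tested genes was 0.03. In 42 members the RNA was at least 2-fold lower and in 11 at least 4-fold lower. The share of all tested genes at these limits was not counted, and the lower quartile of their log2 fold changes was -0.51. All 3 SCH772984 libraries lay below all 3 DMSO libraries for 53 members, as they did for 36.4% of all tested genes, and above them for none, against 38.0%. Over the members, each library's median of the log2 level minus the DMSO mean was -1.61, -1.52 and -1.61 with SCH772984, against -0.003 to 0.006 in the DMSO libraries. In bulk RNA, fewer cells in S phase and less RNA of these genes per cell cannot be told apart, and counts relative to a library's total say nothing of the RNA content of a cell.

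**Figure D1:**
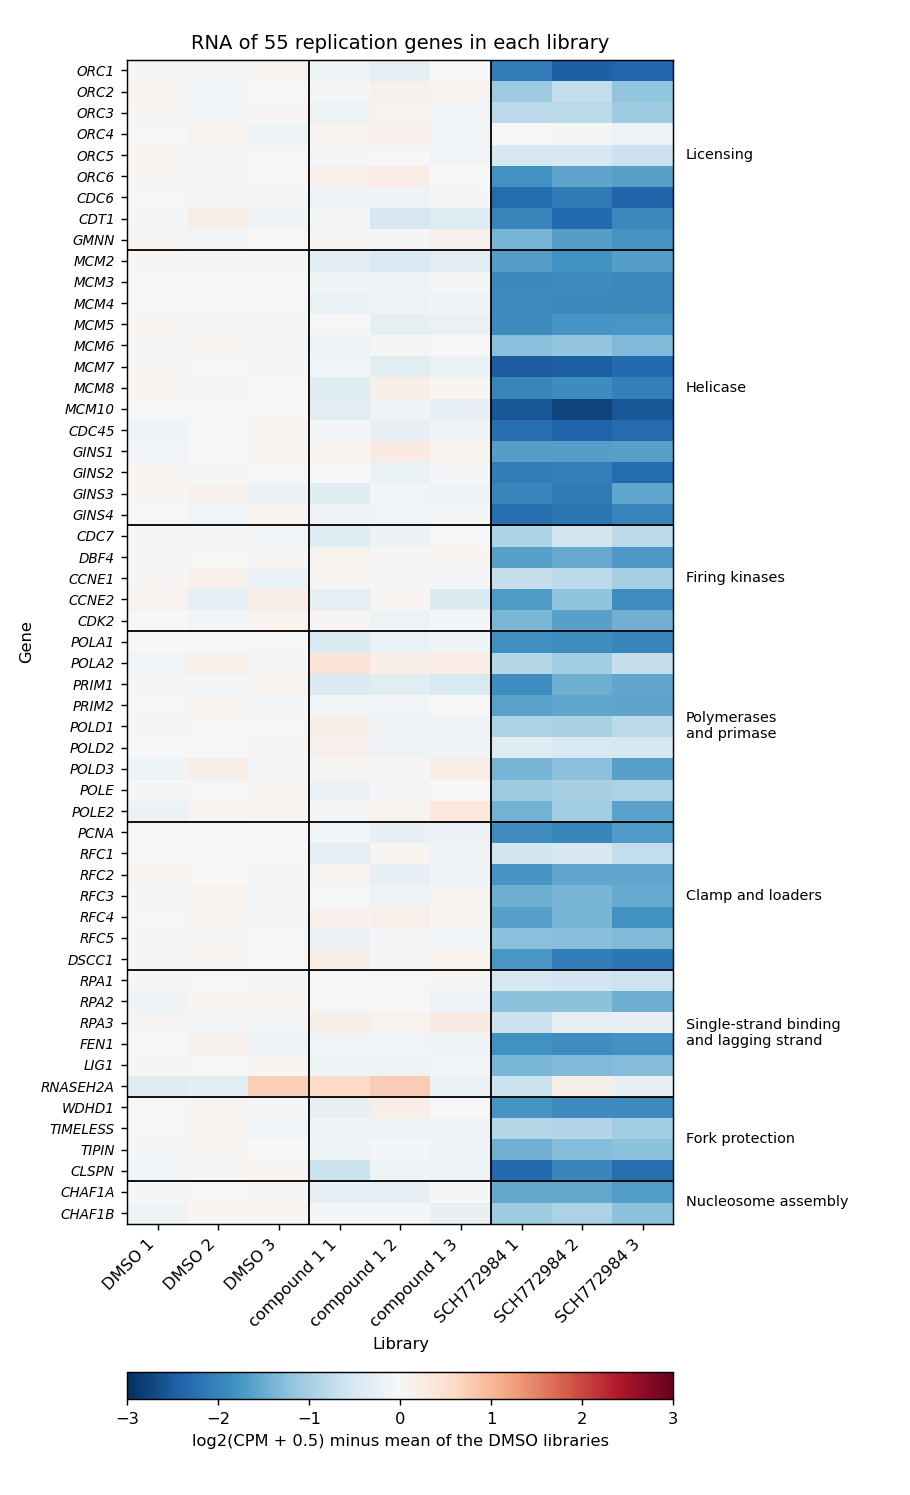
Level of the 55 replication genes in each library, as log2(CPM + 0.5) minus the mean of the 3 DMSO libraries, on a colour scale from blue (lower) to red (higher). Rows are genes grouped by step and columns are the 9 libraries. The 3 SCH772984 columns are blue in nearly every row, with library medians of -1.61, -1.52 and -1.61, and the row of ORC4 is pale throughout, at -0.14 to 0.12. The barely counted RNASEH2A varies within every condition, from -0.65 to 0.74 over the 9 libraries.

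Of the 9 licensing genes 8 were lower with SCH772984, and the median change of the step was -1.64 on the log2 scale. Here and for the steps that follow, a value given as a change is the log2 fold change of SCH772984 against DMSO, and a value after ± is its SE. ORC1 (ENSG00000085840, chr1:52372829-52404459, minus strand), the ORC subunit known to vary through the cell cycle, was at 49.8, 49.7 and 53.9 CPM with DMSO and 11.7, 9.01 and 9.37 CPM with SCH772984. Its level was 5.12-fold lower (log2 fold change -2.36 ± 0.11 (SE), adjusted p = 2.55e-23). CDT1 (ENSG00000167513, chr16:88803213-88809258, plus strand), which brings the helicase to ORC, was at 83.8, 97.6 and 79.6 CPM with DMSO, 83.8, 60.97 and 65.7 CPM with compound 1 and 21.4, 16.8 and 22.3 CPM with SCH772984. With SCH772984 it was 4.30-fold lower (-2.10 ± 0.10 on the log2 scale, adjusted p = 3.25e-22), and those 3 libraries lay far below the other 6. CDC6, its partner in loading, changed by -2.30 and GMNN, which encodes the CDT1 inhibitor geminin, by -1.64 on the log2 scale. Both were lower at the adjusted threshold, so the licensing factors and their inhibitor fell together.

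ORC4 (ENSG00000115947, chr2:147930397-148021604, minus strand), another ORC subunit, was the only tested member that did not pass the threshold. Its level was 55.4, 59.5 and 50.2 CPM with DMSO and 54.2, 52.9 and 49.7 CPM with SCH772984, and the groups overlapped. The log2 fold change was -0.08 ± 0.08 with a 95% interval of -0.25 to 0.09 and an adjusted p of 0.392, so that the interval spanned 0. The sign of this value turned with the scaling, and 6.58% of the ORC4 exon bases are also covered by genes on the opposite strand. Within ORC the log2 fold changes were spread widely, at -2.36 for ORC1, -1.69 for ORC6, -1.01 for ORC2, -0.91 for ORC3 and -0.54 for ORC5. The 95% intervals of ORC4 (-0.25 to 0.09) and ORC5 (-0.70 to -0.38) did not meet, and neither met that of ORC1.

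Helicase genes had the largest median change of the 8 steps, at -1.95 on the log2 scale, and all 13 were lower with SCH772984, each at least 2-fold. MCM10 (ENSG00000065328, chr10:13161554-13211104, plus strand), which helps to activate the helicase, changed most of all members. It was at 61.8, 60.98 and 60.99 CPM with DMSO and at 9.95, 8.59 and 10.04 CPM with SCH772984, 6.43-fold lower (log2 fold change -2.68 ± 0.10 (SE), adjusted p = 1.46e-26). MCM7 (ENSG00000166508, chr7:100092728-100101940, minus strand), a subunit of the ring, was at 739, 726 and 709.6 CPM with DMSO and 127, 133 and 144 CPM with SCH772984. It fell 5.39-fold (-2.43 ± 0.06 on the log2 scale, adjusted p = 2.03e-32), and its SCH772984 libraries were far from the rest. MCM6 (ENSG00000076003, chr2:135839626-135876426, minus strand) was the member of this step that changed least, from 215, 235 and 217 CPM to 92.8, 99.7 and 87.9 CPM, a log2 fold change of -1.25 ± 0.07 (adjusted p = 3.63e-21). Even here the groups were well apart. Of the activators that join the ring, CDC45 changed by -2.36 and the 4 GINS subunits by -2.20 (GINS2) to -1.67 (GINS1). MCM8, a relative of the ring subunits that is known for its part in recombination, changed by -2.01.

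The 6 ring subunits, which the helicase holds in equal number, differed in RNA level. Per kilobase of exon, the DMSO level was 165 ± 3.30 CPM (SD, n = 3) for MCM7, 78.9 ± 0.152 for MCM3, 72.8 ± 1.15 for MCM4, 55.01 ± 2.11 for MCM2, 53.98 ± 2.61 for MCM6 and 24.05 ± 0.766 for MCM5. MCM2 and MCM6 were neighbours whose spreads overlapped, while the other neighbours in this order were further apart than their SDs. With SCH772984 the same levels were 30.7 ± 1.93 for MCM7, 22.7 ± 1.45 for MCM6, 20.5 ± 0.201 for MCM3, 19.2 ± 0.175 for MCM4, 16.8 ± 1.06 for MCM2 and 6.84 ± 0.338 CPM per kilobase for MCM5. MCM6 thus passed MCM3 and MCM4 in this order, by more than the SDs, while MCM7 was highest and MCM5 lowest in both conditions. The order rests on dividing by all annotated exon bases (6973 for MCM4, 4118 for MCM6), and lengths of the expressed transcripts were not measured. Without that division MCM4 stayed above MCM6, at 508 against 222 CPM with DMSO and 134 against 93.5 CPM with SCH772984. Exons of MCM7 share 8.94% of their bases with a gene on the opposite strand, and those of MCM2 share 23.6%, but the chief partner of MCM2 had only 37 counts over the 9 libraries, against 16764 for MCM2.

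**Figure D2:**
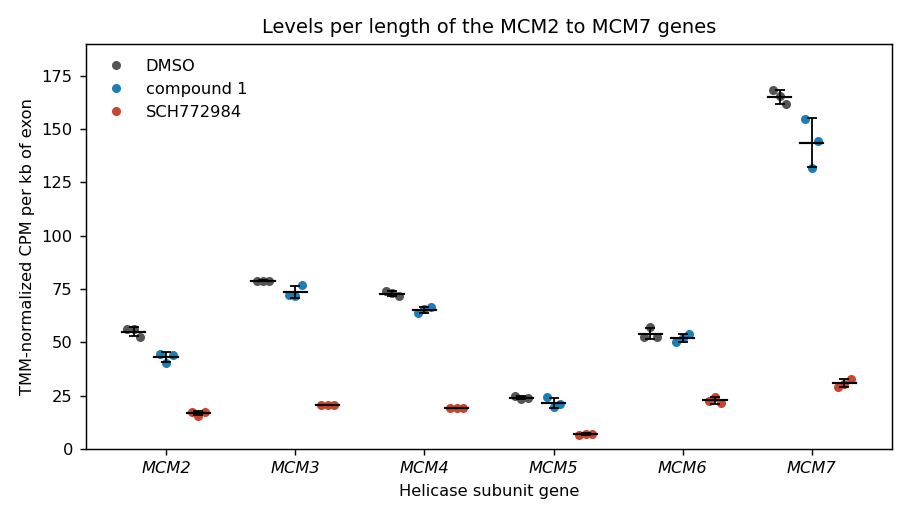
TMM-normalized CPM per kilobase of exon for the 6 genes of the helicase ring (vertical axis), with 1 point per library, a horizontal line at the mean and bars of 1 SD (n = 3). MCM7 is highest and MCM5 lowest in every condition, and the SCH772984 points lie below all others for each gene.

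All 5 genes of the firing kinases were lower with SCH772984, with a median change of -1.50 on the log2 scale. CCNE2 (ENSG00000175305, chr8:94879770-94896678, minus strand), an E-type cyclin that activates CDK2, was at 12.8, 9.59 and 13.9 CPM with DMSO and 3.32, 4.88 and 2.95 CPM with SCH772984, a log2 fold change of -1.72 ± 0.20 (SE) with an adjusted p of 1.86e-10. Its counts were low and 37.1% of its exon bases are covered by genes on the opposite strand, mainly INTS8. CDC7 (ENSG00000097046, chr1:91500893-91525764, plus strand), the kinase that phosphorylates the MCM ring, changed least, from 29.9, 29.7 and 27.3 CPM to 14.8, 19.4 and 16.4 CPM (-0.78 ± 0.12 on the log2 scale, adjusted p = 7.59e-08). DBF4, a regulatory subunit that activates CDC7, changed more, by -1.65 with an interval of -1.82 to -1.48 against -1.02 to -0.55 for CDC7. CDK2 changed by -1.50 and CCNE1, the other E-type cyclin, by -0.85.

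All 9 genes of the replicative polymerases and primase were lower with SCH772984, with a median of -1.41. POLA1 (ENSG00000101868, chrX:24693919-24996986, plus strand), the catalytic subunit of polymerase alpha, was at 122, 119.6 and 121 CPM with DMSO and 33.5, 32.7 and 30.7 CPM with SCH772984, 3.76-fold lower (log2 fold change -1.91 ± 0.08 (SE), adjusted p = 8.04e-26). The primase genes PRIM1 and PRIM2 changed by -1.75 and -1.64. PRIM1 (ENSG00000198056, chr12:56731596-56752373, minus strand), the catalytic primase subunit, was at 12.3, 12.02 and 13.2 CPM with DMSO and 3.07, 4.21 and 3.88 CPM with SCH772984 (log2 fold change -1.75 ± 0.18, adjusted p = 1.27e-11), and its libraries of both groups were well apart. POLA2 changed by -0.95, with 534 counts over 9 libraries and 35.1% of its exon bases covered by another gene on the same strand. Changes were smaller in the catalytic subunits of the extending polymerases, at -1.02 for POLE and -0.90 for POLD1. The smallest was that of POLD2 (ENSG00000106628, chr7:44114681-44124358, minus strand), a polymerase delta subunit, from 284, 281 and 291 CPM to 224, 207 and 205 CPM (-0.43 ± 0.06, adjusted p = 2.85e-08). The groups were still separate, and the change was -0.26 with scaling by library size alone. The accessory subunits POLD3 and POLE2 changed by -1.48 and -1.41.

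Clamp and loader genes had a median of -1.64, and all 7 were lower with SCH772984. DSCC1 (ENSG00000136982, chr8:119833976-119856010, minus strand), part of an alternative clamp loader needed for cohesion between sister chromatids, was at 16.7, 18.3 and 17.4 CPM with DMSO and 4.81, 3.79 and 3.48 CPM with SCH772984, a log2 fold change of -2.13 ± 0.17 (SE, adjusted p = 2.27e-15). PCNA (ENSG00000132646, chr20:5114953-5126626, minus strand), the sliding clamp, was at 259.8, 264 and 266 CPM with DMSO, 249, 227 and 233 CPM with compound 1 and 71.4, 67.3 and 80.1 CPM with SCH772984. It was 3.61-fold lower with SCH772984 (-1.85 ± 0.07, adjusted p = 4.95e-27). Per kilobase of exon PCNA had the highest DMSO level of the 55 genes, 179 ± 2.15 CPM (SD, n = 3). RFC1 (ENSG00000035928, chr4:39287456-39366375, minus strand), the large subunit of the main loader, changed least, from 91.5, 93.6 and 92.9 CPM to 60.96, 66.8 and 55.7 CPM (-0.61 ± 0.08, adjusted p = 1.55e-09). Its 95% interval of -0.76 to -0.45 did not meet those of the small subunits RFC2 to RFC5, which changed by -1.64 (RFC2) to -1.31 (RFC5).

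Of the genes for single-strand binding and the lagging strand, 5 of 6 were tested and all 5 were lower, with a median of -1.33. FEN1 (ENSG00000168496, chr11:61792637-61797244, plus strand), the nuclease that trims flaps between lagging-strand fragments, was at 97.4, 106 and 86.01 CPM with DMSO and 26.7, 25.9 and 26.7 CPM with SCH772984, 3.65-fold lower (log2 fold change -1.87 ± 0.08 (SE), adjusted p = 8.8e-24). LIG1, the ligase that seals those fragments, changed by -1.35. RPA3 (ENSG00000106399, chr7:7636518-7718607, minus strand), the smallest subunit of the protein that coats single-stranded DNA, changed least, from 43.2, 39.6 and 38.8 CPM to 25.6, 32.8 and 33.9 CPM (-0.40 ± 0.10, adjusted p = 0.000405), and its change was -0.22 with scaling by library size alone. The other subunits RPA1 and RPA2 changed by -0.59 and -1.33. The 95% interval of RPA2 (-1.53 to -1.13) met neither that of RPA1 (-0.71 to -0.46) nor that of RPA3 (-0.60 to -0.20), and the last 2 overlapped. RNASEH2A, the catalytic subunit of the enzyme that removes ribonucleotides, was not tested, with 59 counts over the 9 libraries and a level of at most 1.25 CPM, and another gene on the same strand covers 30.8% of its exon bases.

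The 4 genes of fork protection were all lower with SCH772984 (median -1.64). CLSPN (ENSG00000092853, chr1:35720218-35769967, minus strand), which encodes claspin, an adaptor of the replication checkpoint, was at 63.2, 68.8 and 70.5 CPM with DMSO, 43.1, 61.8 and 60.9 CPM with compound 1 and 12.9, 16.9 and 13.7 CPM with SCH772984. The SCH772984 level was 4.67-fold lower than that with DMSO (log2 fold change -2.22 ± 0.10 (SE), adjusted p = 3.76e-24). WDHD1, which links polymerase alpha to the helicase, changed by -1.89. TIMELESS (ENSG00000111602, chr12:56416373-56449403, minus strand), the partner of TIPIN in a complex that steadies the fork, changed least, from 87.1, 92.6 and 81.97 CPM to 48.02, 47.4 and 42.2 CPM (-0.93 ± 0.08, adjusted p = 2.05e-14). TIPIN changed by -1.39. In nucleosome assembly, CHAF1A (ENSG00000167670, chr19:4402662-4445018, plus strand), the large subunit of the chaperone CAF-1 that places histones on new DNA, was at 110.1, 108 and 105 CPM with DMSO, 90.8, 90.98 and 103 CPM with compound 1 and 36.9, 36.7 and 33.4 CPM with SCH772984 (-1.60 ± 0.08 for SCH772984 against DMSO, adjusted p = 7.4e-23). CHAF1B (ENSG00000159259, chr21:36385378-36419015, plus strand), its partner subunit, went from 54.5, 61.6 and 62.2 CPM to 27.95, 30.6 and 25.2 CPM (-1.10 ± 0.09, adjusted p = 9.17e-15), and for both genes the SCH772984 libraries were apart from the rest.

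**Figure D3:**
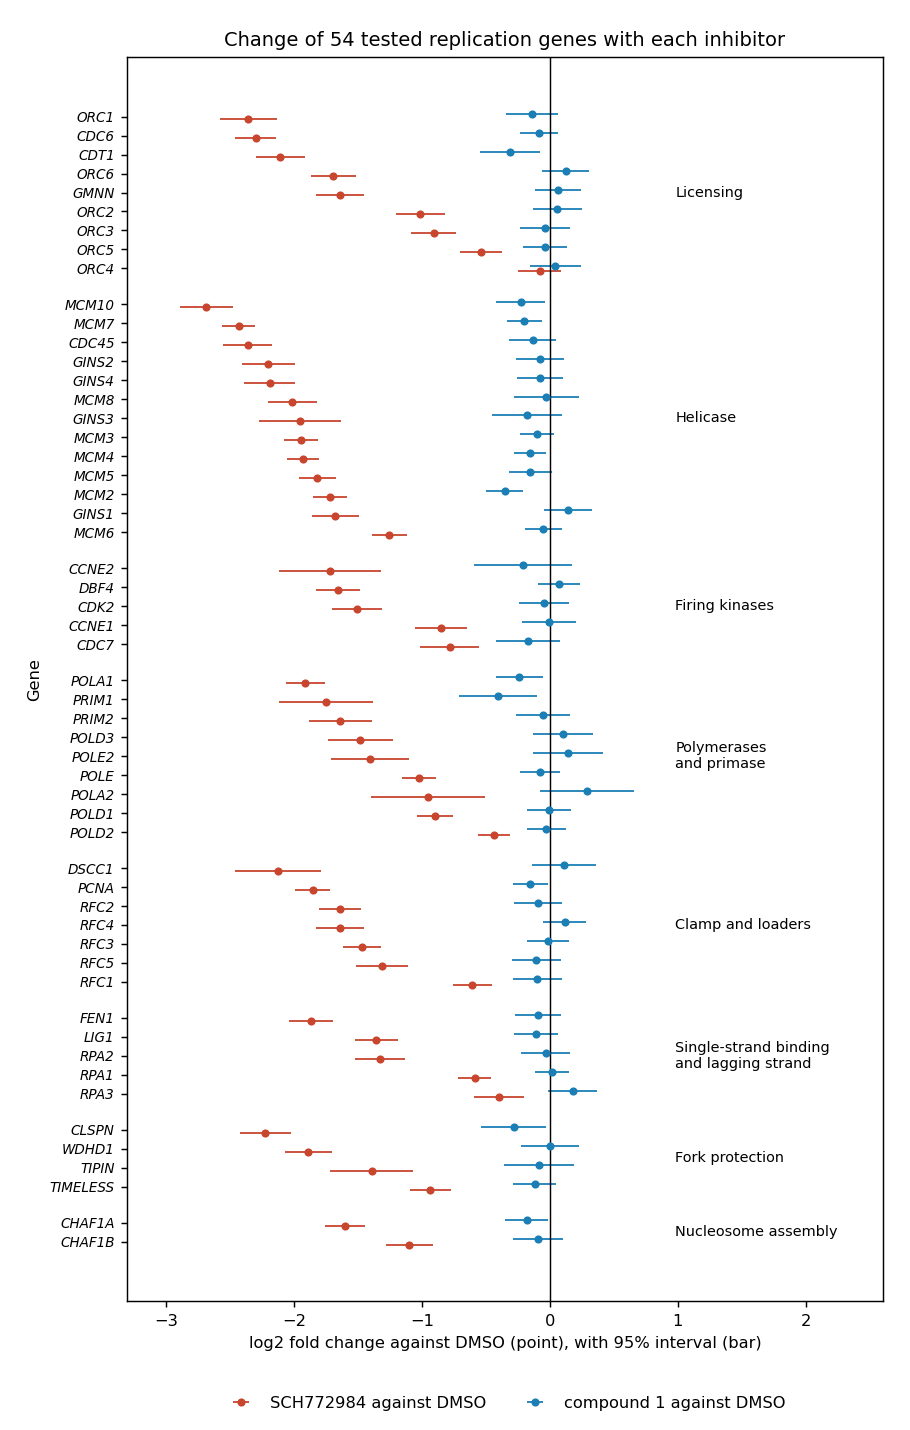
Log2 fold change against DMSO of the 54 tested replication genes with SCH772984 (red) and compound 1 (blue), with 95% intervals as bars, ordered within each step by the change with SCH772984. Both comparisons use the same 3 DMSO libraries. Red points run from -2.68 (MCM10) to -0.08 (ORC4), and blue points from -0.40 (PRIM1) to 0.29 (POLA2).

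With compound 1, 1 of the 54 tested members was lower than with DMSO at an adjusted p under 0.05, and none was higher. Over all 12849 genes tested, 0.374% were lower and 0.490% were higher. The DMSO libraries are those of the SCH772984 comparison. At an unadjusted p under 0.05, 10 members were lower and none was higher, where 7.69% of all tested genes were lower and 7.35% were higher. The median log2 fold change was -0.08, against 0.002 for all tested genes, and 40 of the 54 values were below 0, where 49.5% of all tested genes were. With scaling by library size alone the members' median was -0.0479, that of all tested genes 0.032, and 35 values were below 0. Library medians of the log2 level minus the DMSO mean were -0.076, -0.074 and -0.074. All 3 compound 1 libraries lay below all 3 DMSO libraries for 14 of the 55 genes, lay above them for 2 (POLA2 and RPA3) and overlapped for 39. Over all tested genes they lay below DMSO for 10.6% and above it for 10.3%. The 95% intervals of the 54 changes reached from -0.71 (PRIM1) to 0.66 (POLA2), so that a 2-fold change in either direction lay outside each of them.

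MCM2 (ENSG00000073111, chr3:127598223-127622436, plus strand), a subunit of the helicase ring, was the member called with compound 1. It was at 276, 276 and 258 CPM with DMSO, 218, 197 and 217 CPM with compound 1 and 84.9, 76.3 and 85.5 CPM with SCH772984, and the 3 groups did not overlap. Against DMSO it was 1.28-fold lower with compound 1 (log2 fold change -0.35 ± 0.07 (SE), adjusted p = 0.0299) and 3.28-fold lower with SCH772984 (-1.72 ± 0.07, adjusted p = 2.98e-26). Leaving out compound 1 replicate 2 or 3 or any of the DMSO libraries raised the adjusted p with compound 1 above the threshold, to 0.0552 to 0.252, with log2 fold changes of -0.38 to -0.32. Without compound 1 replicate 1, 5 members were lower at the adjusted threshold (CDT1, MCM2, MCM5, MCM7 and PCNA), and over all genes 798 were lower and 453 higher, against 48 and 63 with all libraries. Leaving out any of the other 5 libraries brought the calls over all genes down to 3 to 24 lower and 5 to 27 higher.

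The other 9 genes at the unadjusted threshold with compound 1 had an adjusted p of 0.16 to 0.291. None of them belonged to the firing kinases or to single-strand binding and the lagging strand. For CDT1 the change was -0.31 ± 0.11 on the log2 scale (adjusted p = 0.196). Its compound 1 replicate 1 was at the level of DMSO replicate 1, and the other 2 compound 1 libraries were lower. In the helicase ring, MCM7 was at 679.5, 578 and 634 CPM with compound 1 (-0.20 ± 0.07, adjusted p = 0.16). MCM4 (ENSG00000104738, chr8:47960185-47978160, plus strand) was at 516, 508 and 499.7 CPM with DMSO, 445, 456 and 463 CPM with compound 1 and 135, 133 and 133 CPM with SCH772984 (log2 fold change -0.16 ± 0.06 with compound 1, adjusted p = 0.222, and -1.93 ± 0.06 with SCH772984, adjusted p = 1.85e-29). For both subunits the compound 1 libraries lay just below the DMSO libraries. MCM10 was at 48.1, 56.9 and 51.6 CPM with compound 1 (-0.23 ± 0.09, adjusted p = 0.239).

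At the start of strands, PRIM1 was at 9.24, 10.0 and 9.03 CPM with compound 1, with the largest log2 fold change of the members in size (-0.40 ± 0.14, adjusted p = 0.193). POLA1 was at 89.6, 105 and 111 CPM (-0.24 ± 0.09, adjusted p = 0.203), and without compound 1 replicate 1 its change was -0.15. Both were below DMSO in all 3 compound 1 libraries, although PRIM1 rested on 764 counts over 9 libraries. The other two genes of the complex of polymerase alpha with primase did not share this, PRIM2 overlapping with DMSO (-0.05 ± 0.10, adjusted p = 0.843) and POLA2 lying above it. The change of PCNA was -0.15 ± 0.06 (adjusted p = 0.267), that of CLSPN -0.28 ± 0.12 (adjusted p = 0.276) and that of CHAF1A -0.18 ± 0.08 (adjusted p = 0.291). CLSPN was lowest in compound 1 replicate 1, without which its change was -0.13, whereas CDT1 was highest there. POLA2 was at 6.04, 7.17 and 6.12 CPM with DMSO and 8.60, 7.40 and 7.57 CPM with compound 1, without overlap, but passed neither threshold (0.29 ± 0.17, adjusted p = 0.472).

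Compared directly, 53 of 54 members were lower with SCH772984 than with compound 1 and none was higher, with a median log2 difference of -1.54. Over all 13863 genes tested, 32.6% were lower and 33.7% were higher with SCH772984. The SCH772984 libraries all lay below those of compound 1 for 53 members, against 34.1% of all tested genes, and above them for none, against 35.3%. ORC4 again did not pass, at -0.11 ± 0.10 with a 95% interval of -0.32 to 0.09 (adjusted p = 0.32). Without compound 1 replicate 3 the count was 54, as RNASEH2A then passed the filter and was lower while ORC4 still did not pass. The largest difference was that of MCM10, at -2.45 ± 0.12 (adjusted p = 7.17e-13). Among the called members the smallest was that of POLD2, at -0.40 ± 0.09 (adjusted p = 0.00037), and 41 of the members were at least 2-fold lower with SCH772984 than with compound 1. Over all tested genes the lower quartile of the log2 difference was -0.50. MCM2, the gene called with compound 1, was lower still with SCH772984, by -1.35 ± 0.09 on the log2 scale (adjusted p = 2.89e-11).

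Balance between genes that act against or beside each other was measured as the log2 ratio of their counts in each library, with 0.5 added to each count. A two-sided exact permutation test with 3 against 3 libraries cannot give a p below 0.1, so no ratio could pass 0.05, and values were adjusted over 9 comparisons. The ratio of CDT1 to its inhibitor gene GMNN was 0.40 ± 0.21 in the DMSO libraries (SD, n = 3), 0.02 ± 0.21 in those of compound 1 and -0.08 ± 0.28 in those of SCH772984. Each inhibitor's libraries lay below those of DMSO (exact p = 0.1, adjusted 0.15, for each), and the inhibitors overlapped (exact p = 0.5). The separation was thin, as compound 1 replicate 1 was at 0.261 and SCH772984 replicate 3 at 0.239, against 0.264 in DMSO replicate 1. CCNE1 to CCNE2 was 1.85 ± 0.43 for DMSO, 2.05 ± 0.27 for compound 1 and 2.72 ± 0.34 for SCH772984. Its SCH772984 libraries were above those of DMSO (exact p = 0.1, adjusted 0.15), and compound 1 overlapped with DMSO (exact p = 0.7). ORC1 to ORC2, both subunits of ORC that were lower with SCH772984, was -0.23 ± 0.11 for DMSO, -0.43 ± 0.18 for compound 1 and -1.57 ± 0.38 for SCH772984. This ratio showed the widest gap, with SCH772984 below both other groups (exact p = 0.1, adjusted 0.15, for each).

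**Figure D4:**
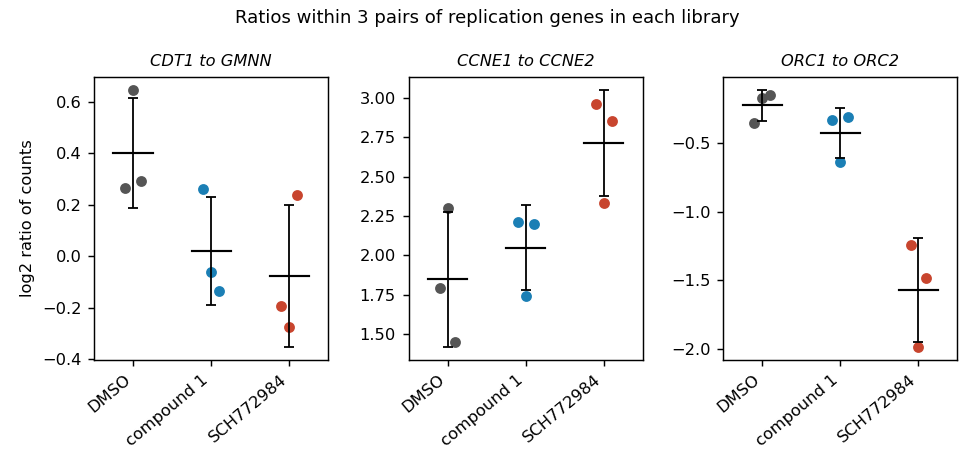
Log2 ratio of counts within 3 pairs of replication genes (vertical axes, each with its own range), with 1 point per library, a line at the mean and bars of 1 SD (n = 3). ORC1 to ORC2 falls from -0.23 with DMSO to -1.57 with SCH772984 with no overlap, while the 3 groups of the other pairs lie closer.

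Level and size of change were also set side by side. Across the 54 tested genes, the log2 level per kilobase with DMSO and the log2 fold change with SCH772984 had a Pearson r of -0.14 and a Spearman rho of -0.09. These genes share the same 6 libraries and are not independent replicates. RNASEH2A had the lowest DMSO level per kilobase, 0.168 ± 0.140 CPM (SD, n = 3), followed by POLA2 at 1.13 ± 0.110 CPM and CCNE2 at 2.75 ± 0.507 CPM, all far below PCNA and MCM7. As given above, another gene on the same strand covers part of the exons of RNASEH2A and POLA2, so the counts of both are uncertain.

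A list of 38 further replication factors, none of them among the 55, was described in the same way. With SCH772984 33 were lower and none higher at the adjusted threshold, where 35.5% of all tested genes were lower and 37.2% higher. The median of the 38 was -1.05, a smaller change than the -1.64 of the members. CCNA2, the cyclin that drives CDK2 in S phase, changed by -2.11 ± 0.07, FBXO5, which encodes an inhibitor of the anaphase-promoting complex, by -2.21 ± 0.10, and DTL, part of the ligase that destroys CDT1, by -2.07 ± 0.08. These 3 were at least 4-fold lower. The topoisomerase genes TOP1 and TOP2A changed by -1.62 and -1.68, and SSRP1 and SUPT16H, the subunits of the histone chaperone FACT, by -1.11 and -1.08. MCM9, DONSON, ASF1A, RAD17 and POLD4 did not pass, at -0.04, -0.05, 0.06, -0.01 and 0.61. With compound 1 the median of the 38 was -0.004. None of them passed the adjusted threshold, where 0.374% of all tested genes were lower and 0.490% higher. At the unadjusted threshold 4 were lower, MCMBP (-0.16 ± 0.07), CHTF8 (-0.20 ± 0.08), SSRP1 (-0.16 ± 0.07) and DTL (-0.26 ± 0.08), and 2 were higher, CHTF18 (0.35 ± 0.10) and the helicase gene PIF1 (0.48 ± 0.12), where 7.69% of all tested genes were lower and 7.35% higher, so these counts were near the background. PIF1 was at 22.01, 18.1 and 24.4 CPM with DMSO and 29.7, 31.8 and 28.4 CPM with compound 1, without overlap (adjusted p = 0.0738).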

How the data were processed

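Read counts per gene of 9 RNA-seq libraries (3 per condition, grouped by their labels) were used as deposited by the authors, as whole numbers without normalization for 58735 genes. The submitters' processing notes name HISAT2 2.0.5, featureCounts 1.5.0-p3 and hg38. The strand setting is not given in the sources used here, so reads of genes that overlap on opposite strands could not be told apart. All 58735 gene identifiers and their coordinates are those of GENCODE 29 (GRCh38). Nothing in the labels states separate cultures, so p-values measure the spread between these samples, which may be technical.

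Each pair of conditions was fitted alone over all genes with edgeR 4.0.16 in R 4.3.3 (TMM, filterByExpr with a minimum count of 10 and a minimum total of 15, robust quasi-likelihood test). A gene was called at a Benjamini-Hochberg adjusted p under 0.05. Standard errors were taken from the F statistic, and 95% intervals from its degrees of freedom. Totals of 9464432 to 13887859 counts gave a median standard error of 0.09 on the log2 scale for the members with either inhibitor against DMSO. Levels are TMM-normalized CPM over the 9 libraries, per kilobase of GENCODE exons where genes are compared.

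Full values are given for members called with compound 1 at an adjusted or unadjusted p, for tested members not called with SCH772984, and for the largest and smallest change per step. The members and lists were chosen with earlier results of these data known. Promoters came from RefSeq (GRCh38.p14), and those printed leave out chromosome 8. RPA2, CCNE2, RPA3, MCM5, POLD3, MCM4, CDK2, DSCC1 and GINS4 had none listed. Alternatives were RLE factors, library size alone, other filters, all 9 libraries in one fit, a replicate block, DESeq2 1.42.0, protein-coding genes only, an unadjusted p and leaving out each library. The fit was tested on simulated data. Ratios were compared in R 4.3.3, and the Pearson and Spearman values were computed with scipy 1.17.1.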

Additional observations from a re-analysis of the deposited data

How the results depend on the processing

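Over the alternatives, 53 members remained the count of lower genes with SCH772984 against DMSO, and 754 of 756 single values of the 54 tested members kept their direction and side of the threshold. The 2 others were those of ORC4, which turned to 0.10 with scaling by library size alone and to 0.000619 with at least 10 counts in every library. Scaling by library size alone moved the median of all tested genes from 0.03 to 0.20, and the members' median from -1.64 to -1.46. That median was -1.56 with at least 10 counts in every library and -1.66 to -1.56 when each library was left out. With compound 1, 1 lower member became 2 without a filter on low counts, 10 at the unadjusted p and 0 to 5 when each library was left out. The highest of these came without compound 1 replicate 1, and the count was 0 without each of the other 5 libraries, where no more than 24 genes in all were lower. The members' median with compound 1, -0.08, was -0.0479 with library size alone, -0.0863 without a filter, -0.0706 over protein-coding genes and -0.0851 to -0.0672 with each library left out. Of the 38 other replication factors, 4 were lower with compound 1 at the unadjusted p and 0 to 2 with each library left out, 2 being without compound 1 replicate 1. The count of members with an E2F match fell from 22 to 13 with the spellings TTTGGCGC and TTTCGCGC alone and to 10 on the gene's strand alone, as less was searched, and the share of tested genes from 6.67% to 2.40% and 3.85%. Among the ratios, CDT1 to GMNN between SCH772984 and compound 1 (-0.10) ranged from -0.25 to 0.023 with each library left out. The causes of the other changes were not tested.

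Deviations of libraries with the same replicate number correlated by -0.089 to 0.13 over 13929 genes, and those with different numbers by -0.12 to 0.18. Taken from means of 3 libraries, these values cannot settle whether replicate numbers pair the samples. With the replicate block, 53 members were lower with SCH772984 and 1 with compound 1 (MCM2, adjusted p = 0.00538), and over all genes the calls with compound 1 went from 48 to 219 lower and from 63 to 193 higher. Compound 1 replicate 1 correlated best with SCH772984 replicate 3, so not every library went best with its own number. Library depth limits the low genes most, CCNE2, PRIM1 and POLA2 having 534 to 779 counts over 9 libraries.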

Other observations

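Genes of proliferation outside replication were lower with SCH772984 as well. All 8 of a short list passed the adjusted threshold, where 35.5% of all tested genes were lower and 37.2% higher. The median log2 fold change of the 8 was -1.72. The value was -2.20 for MKI67, a marker of cycling cells, -2.36 and -2.24 for the mitotic kinase genes PLK1 and AURKB, and -1.76 and -1.67 for CDK1 and its cyclin gene CCNB1. TOP2A is also on the list of other replication factors. With compound 1 none of the 8 passed the adjusted threshold of edgeR's test, where 0.374% of all tested genes were lower and 0.490% higher. At an unadjusted p under 0.05 in that test PLK1 was lower (-0.21 ± 0.07) while CCNB1 (0.14 ± 0.06) and CDK1 (0.18 ± 0.07) were higher. At this unadjusted threshold 7.69% of all tested genes were lower and 7.35% higher. CDK1 was at 139, 141 and 143 CPM with DMSO and 163, 162 and 155 CPM with compound 1, and the groups did not overlap. MKI67 was at 641, 954 and 955 CPM in the compound 1 libraries, lowest in replicate 1, against 938, 991 and 1056 CPM with DMSO.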
